A study of Danio rerio with 12 samples.

Results

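The mRNAs of MZznf598 and wild-type zebrafish embryos were compared at 6 h post fertilization (hpf), the onset of gastrulation, across all genes with more than 1 CPM (the counts of a gene scaled to the library size) in at least 3 libraries. The comparison rests on 6 of the 12 libraries of the series, 3 of each genotype, chosen by the genotype and stage in their labels. Wild-type embryos were of the AB strain. MZznf598 embryos came from the znf598 knockout strain, which carries a frameshifting deletion in the first exon, and lacked functional Znf598 from the mother as well as from their own genome. No other allele or agent was given to either group. Every library was made from a pool of whole embryos, obtained by natural breeding and kept at 28.5ºC, so tissues were not separated. The strain background of the mutant was not given in the labels, so the mutation and other sequence differences between the fish lines cannot be told apart. Nothing in the labels says that the 3 libraries of a group came from separate clutches, so p-values measure the spread between these libraries, which may be technical.

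When a ribosome stops on an mRNA, the next one runs into it. Znf598 attaches ubiquitin to proteins of the small subunit in such pairs, and the halted ribosomes are then taken apart while the mRNA may be degraded. At 6 hpf the zygotic genome has been active for some hours and the germ layers are being laid down. Nodal signals at the margin induce mesoderm and endoderm, maternal Wnt signaling sets up the dorsal organizer, and Bmp ligands made on the ventral side pattern the embryo against the organizer's secreted antagonist Chordin. The enveloping layer is a thin epithelium around the embryo, and the yolk syncytial layer lies between the cells and the yolk.

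The targeted gene, znf598 (ENSDARG00000014945), was examined first. Its mRNA level was 93.2, 85.6 and 52.3 CPM in wild-type replicates 1, 2 and 3, and 7.73, 8.73 and 6.75 CPM in those of MZznf598. All MZznf598 libraries, labeled as znf598 knockout, lay far below all wild-type libraries. The log2 fold change was -3.32 with an SE of 0.24 (edgeR adjusted p = 0.000239).

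Of 14613 genes tested, 168 were called up in MZznf598 (1.15%) and 177 down (1.21%), 2.36% in all, at an adjusted p below 0.01 in edgeR's quasi-likelihood test, with Benjamini-Hochberg adjustment over all genes. In each of the 345 called genes, the 3 libraries of one genotype lay entirely above those of the other. Across all genes, 14.4% had every MZznf598 library above every wild-type library and 14.3% had every one below. The called differences were at least 2-fold in 113 genes up and 138 down, and at least 4-fold in 42 and 79. A symbol was known for 323 of the called genes. Symbols came from a table that often leaves off the letter of a duplicated zebrafish gene, so bmp2 or ackr3 may stand for one of several copies.

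**Figure D1:**
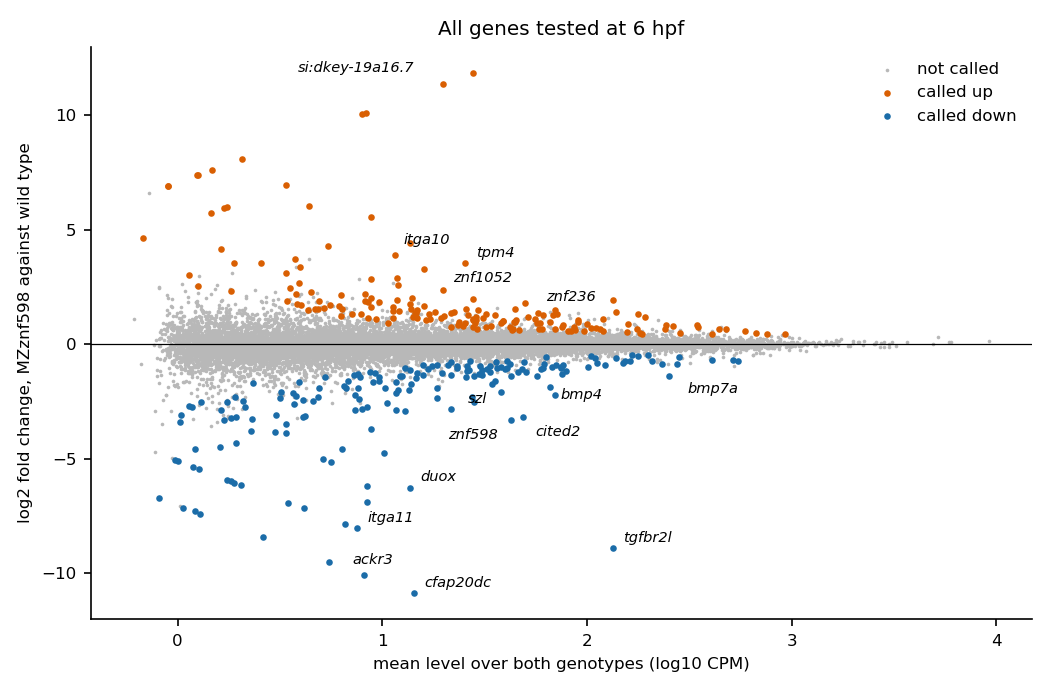
Log2 fold change of MZznf598 against wild type (y axis) over the mean level in both genotypes in log10 CPM (x axis) for the 14613 genes tested at 6 hpf. Orange points are the 168 genes called up and blue points the 177 called down; the genes farthest from 0, such as tgfbr2l and cfap20dc, were at or near 0 counts in one genotype.

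The libraries held 7144704 to 9047614 counts. The third wild-type library stood apart from the others. It differed by more than 2-fold from the mean of the remaining wild-type libraries in 8.55% of genes, against 3.63% and 1.26% for replicates 1 and 2 and 0.719% to 0.951% for the MZznf598 libraries. Several mRNAs that change with stage were among those that set it apart. The pluripotency factor nanog was at 1099, 877 and 334 CPM in wild type and 757 to 886 CPM in MZznf598, and the maternal linker histone h1m at 410, 367 and 156 CPM against 280 to 337 CPM. The paraxial mesoderm gene msgn1 was at 21.5, 33.6 and 69.5 CPM in wild type and 38.4 to 47.8 CPM in MZznf598. In the third wild-type library the first pair was thus lowest and msgn1 highest of all 6 libraries, while the MZznf598 libraries lay between the extremes of wild type. The part of stage in these differences was not tested. Without this library, 885 genes were called up (6.06%) and 857 down (5.86%), 11.9% in all, and 342 of the 345 genes called with it were called in the same direction. Counts for germ layers, signaling and the main functions are therefore given with and without it. Wild-type replicates 1 and 2 lay below every MZznf598 library for msgn1, otx2a and snai1b, and above every one for h1m, while nanog overlapped. The levels of snai1b were 49.3 and 52.2 CPM there against 81.5 to 103 CPM. It was called up without the third wild-type library (edgeR adjusted p = 3.32e-05) and not with it. The estimated spread between libraries was also smaller in that fit. The part of stage in calls made only without this library was not tested.

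**Figure D2:**
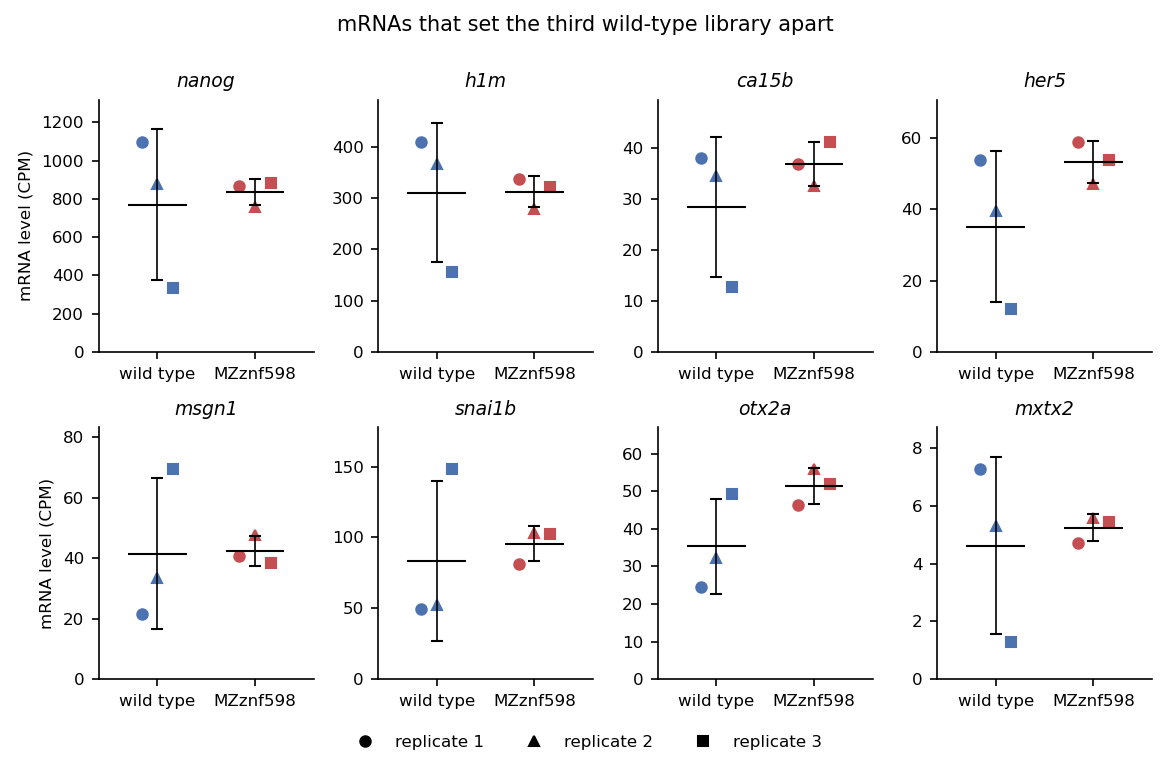
mRNA level in CPM (y axes, starting at 0) of 8 genes in the wild-type (blue) and MZznf598 (red) libraries at 6 hpf, with the mean and SD of 3 libraries in black. The third wild-type library (blue square) was lowest of the 6 for nanog, h1m, ca15b, her5 and mxtx2 and highest for msgn1 and snai1b, while in otx2a it lay with the MZznf598 libraries.

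Germ layer and signaling genes were described first on the ventral side, where Bmp acts. Of 34 tested genes of the Bmp pathway, 3 were called down and none up: the ligands bmp7a and bmp4, and szl. The gene szl encodes Sizzled, a secreted Bmp feedback antagonist that blocks the proteases that cleave Chordin, and is itself a target of Bmp on the ventral side. Without the third wild-type library, 8 of the 34 were called down and 2 up. The median log2 fold change of the list was -0.29, or -0.27 without that library, against -0.02 and -0.01 over all genes. In 11 of the 34 (32.4%) every MZznf598 library lay below every wild-type library, and in 3 every one lay above. Over all genes these shares were 14.3% and 14.4%. Calls over all genes were 1.15% up and 1.21% down, or 6.06% and 5.86% without the third wild-type library. The same shares over all genes apply to the germ layer and signaling lists that follow.

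The largest called difference in the Bmp list was in szl (ENSDARG00000099637), at 54.4, 58.7 and 72.9 CPM in wild type and 14.9, 15.6 and 12.4 CPM in MZznf598. The genotypes were far apart, with no MZznf598 library near the wild-type range. The log2 fold change was -2.11 with an SE of 0.15 (edgeR adjusted p = 0.000239), and it was -1.98 without the third wild-type library.

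The level of bmp7a, whose product pairs with Bmp2 in the active ventral ligand, was 309, 320 and 274 CPM in wild type and 169, 160 and 170 CPM in MZznf598. Its log2 fold change was -0.86 with an SE of 0.08 (edgeR adjusted p = 0.000847). The ligand bmp4 was at 83.6, 98.0 and 119 CPM in wild type and 45.0, 52.9 and 49.4 CPM in MZznf598, a log2 fold change of -1.03 with an SE of 0.14 (edgeR adjusted p = 0.00412). The third wild-type library was lowest of the group for bmp7a and highest for bmp4, and both remained called without it, with log2 fold changes of -0.92 and -0.88. The bmp7a call was lost when any 1 of the MZznf598 libraries was left out (edgeR adjusted p from 0.0108 to 0.0128), and the bmp4 call also without the second wild-type library (0.0244 to 0.0352 over these 4).

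The ligand gene matched as bmp2 was at 8.04, 7.96 and 6.64 CPM in wild type and 4.70, 4.49 and 6.75 CPM in MZznf598, where replicate 3 lay within the wild-type range. It was not called (edgeR adjusted p = 0.240). Genes that respond to Bmp in the ventral embryo did not all lie on the same side. The homeobox repressor ved was at 248, 253 and 271 CPM in wild type and 185, 199 and 198 CPM in MZznf598 (log2 fold change -0.41, edgeR adjusted p = 0.0159). The homeobox gene eve1 was at 95.6, 112 and 127 CPM against 79.5, 82.1 and 74.8 CPM (-0.50, 0.0367). Neither passed the test with all 6 libraries, and both were called down without the third wild-type library, with edgeR adjusted p-values of 0.000729 and 0.00444. By contrast, vox and vent, which repress dorsal genes together with ved, overlapped between the genotypes, with log2 fold changes of 0.02 and -0.01. The direct Bmp target id1 overlapped as well (0.11), while id2 lay lower in every MZznf598 library (-0.91, edgeR adjusted p = 0.0240).

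Extracellular and intracellular modulators followed no single direction. The gene matched as twsg1, encoding Twisted gastrulation, which binds Bmp and Chordin, was at 29.0, 23.5 and 20.2 CPM in wild type and 13.3, 11.5 and 12.7 CPM in MZznf598 (log2 fold change -0.96, edgeR adjusted p = 0.0123). It missed the threshold, and was called down without the third wild-type library. The decoy receptor gene bambi (the copy at 396 to 486 CPM in wild type) lay lower in every MZznf598 library, by -0.32 (edgeR adjusted p = 0.0967). Receptor and Smad genes mostly overlapped: acvr1l had a log2 fold change of 0.03, smad5 of -0.12 and the copies of bmpr1a of -0.25 and -0.03. A smad6 copy was low, at 0.110, 0.774 and 0.424 CPM in wild type and 1.80, 3.03 and 3.20 CPM in MZznf598. It lay higher in every MZznf598 library (log2 fold change 2.58, edgeR adjusted p = 0.0251) and was called up without the third wild-type library. The other smad6 copy (-1.05, edgeR adjusted p = 0.107), smad9 (-1.14, 0.0581) and a bmpr2 copy (-0.50, 0.266) lay lower in every MZznf598 library.

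**Figure D3:**
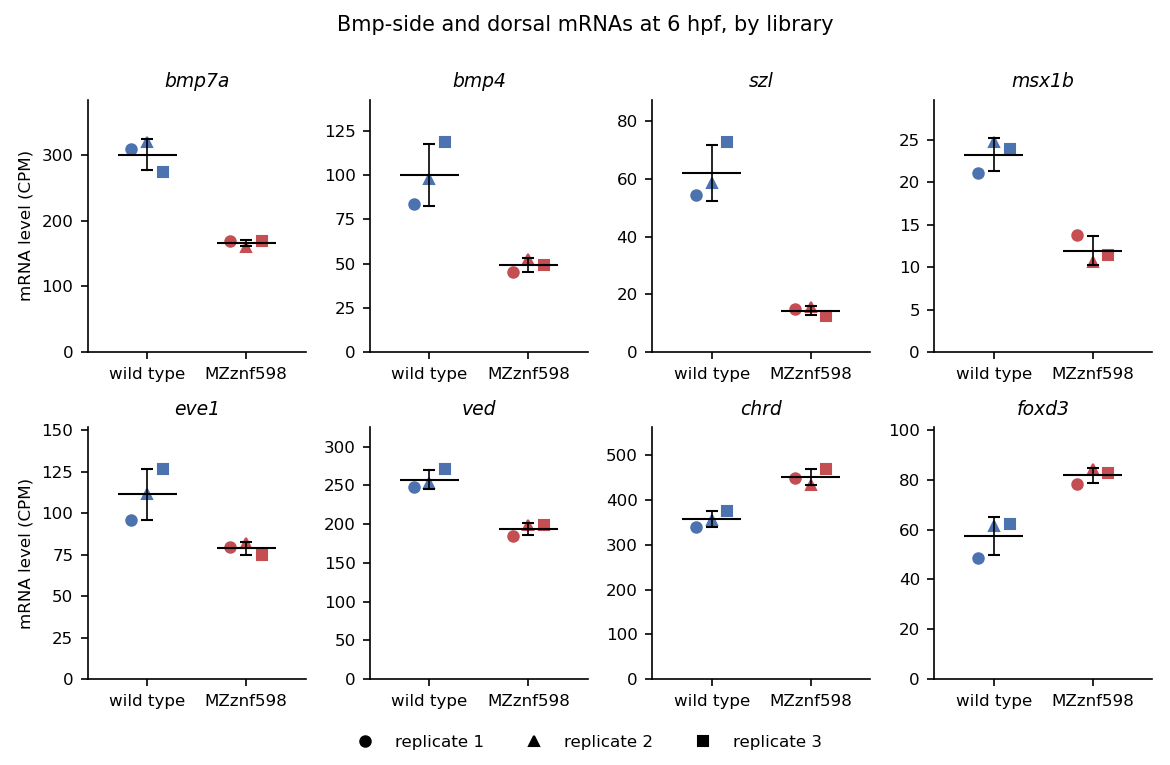
mRNA level in CPM (y axes, starting at 0) of 6 Bmp-side genes (bmp7a, bmp4, szl, msx1b, eve1, ved) and 2 dorsal genes (chrd, foxd3) in the 3 wild-type (blue) and 3 MZznf598 (red) libraries at 6 hpf, with the mean and SD in black. The genotypes do not overlap in any panel; bmp7a, bmp4, szl and msx1b passed the test and eve1, ved, chrd and foxd3 did not with all 6 libraries.

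The non-neural ectoderm forms where Bmp is high. Of its 13 tested genes 1 was called down (7.69%) and none up, and without the third wild-type library 5 were called down and none up. Over all genes 1.21% were called down, and 5.86% without the third wild-type library. The median log2 fold change of the list was -0.34 (-0.31 without that library). The called gene was msx1b, a homeobox gene of the border and ventral ectoderm, at 21.0, 24.8 and 23.9 CPM in wild type and 13.8, 10.6 and 11.4 CPM in MZznf598. The groups were separate, with a log2 fold change of -0.96 with an SE of 0.16 (edgeR adjusted p = 0.00886). The call depended on the exact set of libraries: it was lost when any single library other than the third wild-type one was left out (edgeR adjusted p from 0.0101 to 0.0621). The ectodermal regulator matched as gata2 was at 52.1, 67.0 and 74.6 CPM in wild type and 44.9, 42.3 and 39.5 CPM in MZznf598 (-0.61, edgeR adjusted p = 0.0377). The values for tfap2c were 216, 232 and 238 CPM against 195, 177 and 168 CPM (-0.34, 0.0468). These genes and ved, which stands in both lists, were separate between the genotypes and were called down without the third wild-type library. Other ectodermal regulators were not lower throughout: gata3 lay higher in every MZznf598 library (0.24), and foxi1 and tfap2a overlapped (-0.33 and -0.23). The epidermal gene tp63 was under the filter on low counts.

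On the dorsal side, none of the 19 tested genes of the organizer and axial mesoderm was called with all 6 libraries. Without the third wild-type library 7 were called up and none down, against 6.06% and 5.86% over all genes. Among them was otx2a, which stands in the neural ectoderm list too. In 8 of the 19 (42.1%) every MZznf598 library lay above every wild-type library and in none below. Over all genes these shares were 14.4% and 14.3%. The median log2 fold change of the list was 0.25 with and without the third wild-type library. The gene chrd, which encodes Chordin, was at 341, 356 and 376 CPM in wild type and 450, 434 and 469 CPM in MZznf598. Every MZznf598 library was higher, with a log2 fold change of 0.34 with an SE of 0.07 (edgeR adjusted p = 0.0321), and chrd was called up without the third wild-type library (0.37, edgeR adjusted p = 0.000485). It was not called when any other single library was left out (edgeR adjusted p up to 0.165). The forkhead gene foxd3 was at 48.8, 61.3 and 62.2 CPM against 78.3, 84.3 and 82.7 CPM (0.51, edgeR adjusted p = 0.0328). The axial and endodermal gene foxa3 was at 267, 277 and 257 CPM against 333, 331 and 325 CPM (0.30, 0.0368). Both were likewise called up without the third wild-type library and not with it.

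Not every dorsal marker lay higher. The organizer gene gsc overlapped, at 9.75 to 12.8 CPM in wild type and 8.41 to 11.7 CPM in MZznf598 (log2 fold change -0.11). The notochord gene noto was at 97.0, 102 and 70.6 CPM against 107, 109 and 109 CPM (0.27, edgeR adjusted p = 0.287). The third wild-type library was lowest in noto, and without it the log2 fold change was 0.13. The dorsal Bmp ligand admp was separate, at 59.8 to 65.5 CPM against 70.7 to 78.6 CPM (0.27, edgeR adjusted p = 0.131). Secreted Wnt antagonists of the axis were not called with all 6 libraries: dkk1b had a log2 fold change of 0.25 and frzb of 0.19, and frzb was called up without the third wild-type library (0.78).

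**Figure D4:**
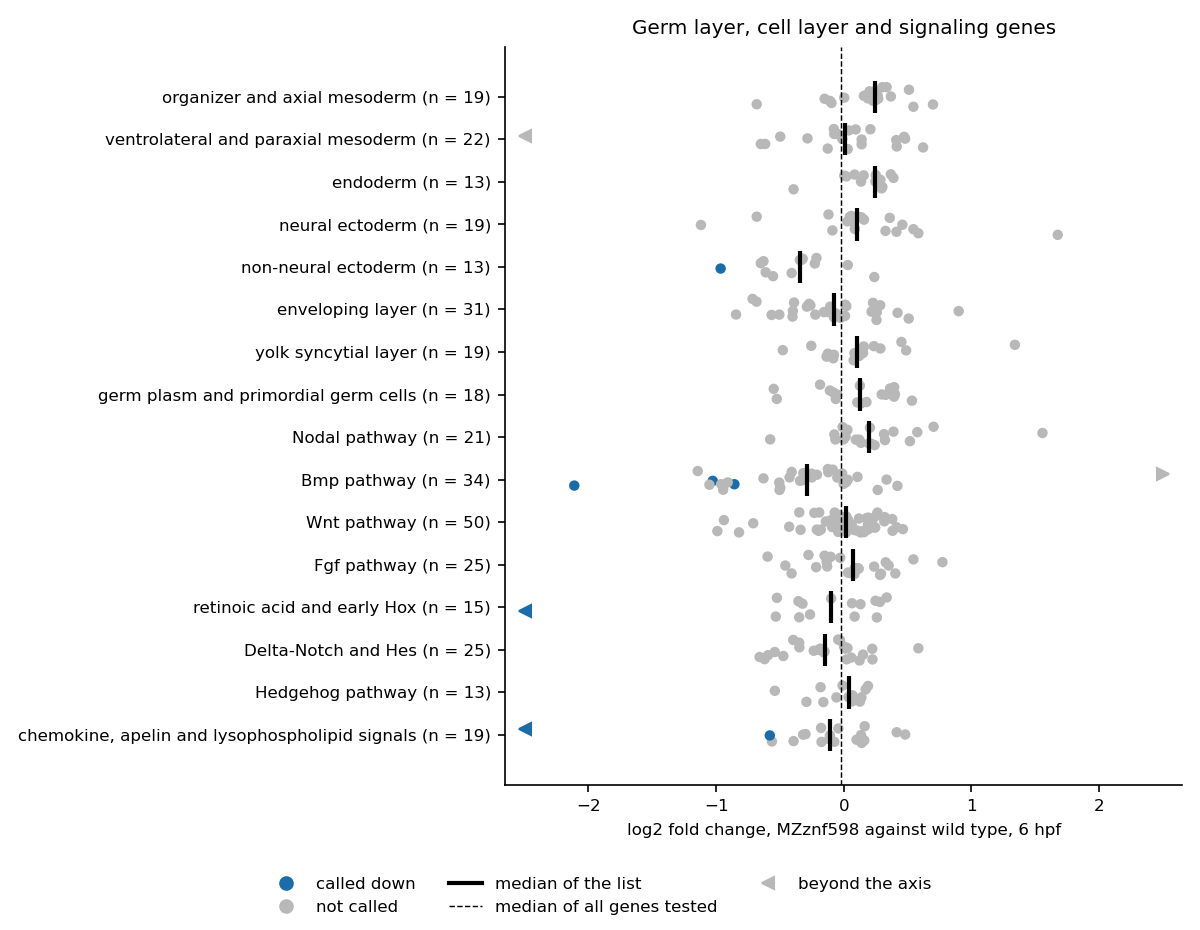
Log2 fold change of MZznf598 against wild type at 6 hpf (x axis) for each tested gene of 16 lists (rows, with the number tested); blue points were called down and gray points were not called. Black bars give the median of each list and the dashed line the median of all genes, and 4 genes beyond 2.5 on either side (cdx1a, smad6, rxra and ackr3) are drawn as triangles at the edge. The Bmp and non-neural ectoderm bars lie left of the line and the organizer, endoderm and Nodal bars right of it. The organizer list shares some genes with the endoderm list and some with the neural ectoderm list.

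Of 21 tested genes of the Nodal pathway none was called with all 6 libraries, and 1 was called up and 1 down without the third wild-type library. The median log2 fold change was 0.20 (0.19 without it), and 9 of the 21 (42.9%) lay higher in every MZznf598 library and none lower. Over all genes, 14.4% lay higher and 14.3% lower. The ligand ndr2 was at 43.0, 41.8 and 42.0 CPM in wild type and 48.7, 54.7 and 54.1 CPM in MZznf598 (log2 fold change 0.32, edgeR adjusted p = 0.0960). The ligand ndr1 was low in both, at 1.13 to 1.98 CPM against 2.30 to 3.45 CPM (0.70, edgeR adjusted p = 0.269). The feedback inhibitor lft2 was separate, at 36.7 to 65.0 CPM against 70.2 to 89.2 CPM (0.52, edgeR adjusted p = 0.180). Its relative lft1 overlapped (0.03). The coreceptor gene tdgf1 was at 334, 324 and 186 CPM in wild type and 280, 252 and 271 CPM in MZznf598, and was called down without the third wild-type library (-0.30, edgeR adjusted p = 0.00366) and not with it.

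Endoderm genes numbered 13, with none called with all 6 libraries, and 2 called up and 1 down without the third wild-type library. Their median was 0.25, and 0.09 without it. The endoderm list shares foxa2, foxa3 and sebox with the organizer list, which had the same median with all 6 libraries. The endoderm determinant sox32 overlapped, at 168 to 210 CPM in wild type and 181 to 201 CPM in MZznf598 (log2 fold change 0.00), as did sox17, at 7.18 to 11.9 CPM and 9.11 to 12.5 CPM (0.30, edgeR adjusted p = 0.538). Among 22 genes of the ventrolateral and paraxial mesoderm none was called with all 6 libraries, and 4 up and 1 down without the third. The T-box gene tbx16 was at 1221 to 1496 CPM in wild type and 1520 to 1597 CPM in MZznf598 (0.14, edgeR adjusted p = 0.433), and tbxta at 504 to 633 CPM and 529 to 561 CPM (-0.10). The caudal genes cdx4 and cdx1a were highest in the third wild-type library, at 107 and 7.06 CPM. Without it their log2 fold changes moved from -0.65 to -0.16 and from -3.14 to -1.88, and neither was called in either fit.

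Of 19 neural ectoderm genes none was called with all 6 libraries and 5 were called up without the third wild-type library, irx1, irx7, otx2a and pax2 among them. The level of otx2a was 24.5, 32.4 and 49.3 CPM in wild type and 46.3, 55.9 and 51.9 CPM in MZznf598. Its call thus rested on leaving out the wild-type library that lay with MZznf598. Both otx2a and otx2 stand in the organizer list as well. The homeobox gene irx7 was at 63.7, 69.8 and 90.4 CPM in wild type and 91.0, 93.9 and 95.5 CPM in MZznf598, just separate between the genotypes (log2 fold change 0.33, edgeR adjusted p = 0.186). The broad neural genes sox2 (-0.12) and sox3 (0.09) and the retinoic acid hydroxylase gene cyp26a1 (0.06) overlapped.

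In the enveloping layer list of 31 genes none was called with all 6 libraries. Without the third wild-type library 5 were called down and none up, against 5.86% and 6.06% over all genes. In 10 of the 31 (32.3%) every MZznf598 library was below every wild-type library, and in 3 every one was above. Over all genes these shares were 14.3% and 14.4%. The keratin krt5 was at 254, 271 and 313 CPM in wild type and 150, 178 and 193 CPM in MZznf598 (log2 fold change -0.68, edgeR adjusted p = 0.0110). The keratin krt8 was at 782, 772 and 834 CPM against 566, 625 and 621 CPM (-0.40, 0.0162). Both missed the threshold narrowly. Other genes of the layer overlapped: krt4 was at 572 to 666 CPM and 518 to 581 CPM (-0.16), and the claudin cldne at 421 to 452 CPM and 428 to 452 CPM (0.01). The regulators klf17 and ovol1a lay higher in every MZznf598 library (0.26 and 0.42). In whole embryos, fewer cells of a type and less RNA per cell cannot be told apart. Keratins are near-identical in sequence, so their reads may have been split or lost.

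Of 19 yolk syncytial layer genes none was called in either fit, and the median was 0.10. The layer's regulator mxtx2 was at 7.27, 5.30 and 1.27 CPM in wild type and 4.70 to 5.58 CPM in MZznf598. Among 18 genes of germ plasm and primordial germ cells none was called with all 6 libraries, and 1 up and 2 down without the third. The germ cell gene nanos3 was at 18.6, 18.9 and 6.36 CPM in wild type and overlapped with MZznf598, whose highest library was at 19.3 CPM (log2 fold change 0.18). Genome activation genes are set beside 14.4% higher and 14.3% lower in every MZznf598 library over all genes. Calls up over all genes were 6.06% without the third wild-type library. In 6 of 15 genes of genome activation (40%) every MZznf598 library lay higher and in none lower, and 2 were called up without the third wild-type library. The largest of these log2 fold changes was in the microRNA processing gene dgcr8, at 70.2, 65.2 and 48.5 CPM in wild type and 102, 103 and 107 CPM in MZznf598 (0.76, edgeR adjusted p = 0.0127). The maternal activator pou5f3 was at 2009 to 2258 CPM and 2342 to 2390 CPM (0.14, edgeR adjusted p = 0.298).

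Calls in other signaling pathways are set beside 1.15% up and 1.21% down over all genes, or 6.06% and 5.86% without the third wild-type library. None of the 50 Wnt genes was called with all 6 libraries, and without the third wild-type library 6 were called up, among them apc, a scaffold of the complex that degrades beta-catenin, and the secreted antagonist sfrp1. The gene apc was at 311, 310 and 287 CPM in wild type and 425, 379 and 406 CPM in MZznf598 (log2 fold change 0.41, edgeR adjusted p = 0.0160). The 2 entries matched to the Wnt ligand gene wnt8a were at 0 CPM in all 6 libraries and could not be tested. These counts cannot tell a silent gene from one whose reads were lost in alignment or counting. None of the 25 Fgf genes was called with all 6 libraries, and 1 up and 1 down without the third. The Fgf target etv5b was at 100, 138 and 140 CPM against 184, 169 and 199 CPM (0.55, edgeR adjusted p = 0.0461), and the ligand fgf8 overlapped (0.24). None of the 25 genes of Delta-Notch signaling was called with all libraries, and 3 were called down without the third wild-type library, with the ligand genes dlc and jag1a among them. None of the 13 Hedgehog genes was called in either fit.

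Called members of the remaining signaling lists are described next. Of 19 genes of chemokine, apelin and lysophospholipid signals 2 were called down and none up, and without the third wild-type library 4 down and 1 up. The chemokine scavenger receptor gene matched as ackr3, which shapes the Cxcl12 gradient for migrating cells, was at 18.5, 17.2 and 13.4 CPM in wild type and had 0 counts in every MZznf598 library. It was at least 43.6-fold lower against a floor of 3 counts in an MZznf598 library (edgeR adjusted p = 0.000258). Its ligand gene cxcl12 was at 59.6, 58.0 and 43.5 CPM against 40.6, 32.0 and 36.7 CPM (log2 fold change -0.56, edgeR adjusted p = 0.0597). The groups were separate in cxcl12, which was called down without the third wild-type library (-0.69). The lysophosphatidic acid receptor gene lpar2 was called down with 71.8, 80.8 and 73.5 CPM in wild type and 50.4, 49.5 and 51.4 CPM in MZznf598 (-0.58, SE 0.09, edgeR adjusted p = 0.00818). The lpar2 call was lost when any single library other than the third wild-type one was left out. Its relative lpar2a went the other way, at 22.1, 25.0 and 31.4 CPM against 35.8, 36.4 and 37.1 CPM (0.48, edgeR adjusted p = 0.0858).

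The gene tgfbr2l, a TGF-beta receptor type II-like gene by its name and the only one called of 5 TGF-beta genes with all 6 libraries, was at 256, 217 and 328 CPM in wild type and 0.414, 0.243 and 0.948 CPM in MZznf598. Nearly all of its mRNA was missing from every MZznf598 library, a log2 fold change of -8.90 with an SE of 0.30 (edgeR adjusted p = 9.2e-06). The retinoid receptor gene matched as rxra was low, at 2.20, 1.77 and 1.70 CPM against 0.138, 0.121 and 0.237 CPM (-3.39, edgeR adjusted p = 0.00447), and was the only one of 15 genes of retinoic acid signaling and early Hox genes to be called with all 6 libraries. The rxra call was lost when any single library other than the third wild-type one was left out (edgeR adjusted p from 0.0117 to 0.0356). The retinoic acid synthase gene aldh1a2 overlapped, at 13.5, 18.9 and 28.8 CPM against 23.9, 29.4 and 23.6 CPM, and was called up without the third wild-type library. The peptide receptor gene rxfp3.3a1 was at 19.1, 19.8 and 20.3 CPM against 0.829, 0.485 and 0.829 CPM (-4.76, edgeR adjusted p = 4.44e-05).

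Other genes with the lowest adjusted p-values encoded proteins of many kinds. The transcription cofactor gene cited2 was at 115, 82.5 and 65.6 CPM in wild type and 8.56, 8.73 and 11.3 CPM in MZznf598 (log2 fold change -3.20, SE 0.23, edgeR adjusted p = 0.000239). The gene duox, for a hydrogen peroxide-producing oxidase, was at 20.3, 23.0 and 37.9 CPM against 0.138, 0.364 and 0.474 CPM. Its maturation factor gene duoxa1 was at 11.1, 11.1 and 17.1 CPM against 0, 0.121 and 0 CPM. Both fell (-6.27 and -7.84, edgeR adjusted p = 0.000181 and 0.000197). Integrin alpha genes differed in opposite directions. A gene matched as itga11 (ENSDARG00000036086) was at 19.1, 14.5 and 11.6 CPM against 0, 0.121 and 0 CPM, whereas itga10 was at 1.10, 1.44 and 1.84 CPM against 17.8, 27.4 and 19.8 CPM (3.90, SE 0.27, edgeR adjusted p = 0.000197). The cilia-associated gene cfap20dc, at 26.0, 27.1 and 32.8 CPM in wild type, had 0 counts in MZznf598 and was at least 76.1-fold lower. The clone-named gene si:dkey-19a16.7 had 0 counts in wild type and 35.1, 51.2 and 33.2 CPM in MZznf598, at least 112-fold higher.

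The remaining genes of this kind that fell were ftr51, mylk, which encodes a myosin light chain kinase, and si:ch211-245n8.4. Those that rose were si:ch211-98n17.5, si:ch211-86h15.1, si:ch1073-83m3.1, si:ch1073-75o15.3, znf999, znf1052, muc2.2, tmem233, cstpp1 and trabd. Their edgeR adjusted p-values ran from 3.80e-05 to 0.000374. The level of trabd, for example, was 34.4, 34.1 and 39.6 CPM in wild type and 88.4, 81.0 and 88.0 CPM in MZznf598, with no overlap (log2 fold change 1.25, SE 0.10). In all, 10 genes called up had no count in any wild-type library, and 8 genes called down had none in any MZznf598 library. Of these, 9 and 6 also had 0 counts at 1 hpf in the same line, before the zygotic genome is active. The other line was over 1 CPM at 1 hpf in only 6 of the 9 and 1 of the 6. For the rest, the 1 hpf counts show no clear difference between the lines. Of the 1767 tested genes at or under 1 CPM in every 1 hpf library, 41 were called up (2.32%) and 42 down (2.38%). Of the other 12846 genes, 127 (0.989%) and 135 (1.05%) were called. Without the third wild-type library the shares were 7.81% and 5.94% against 5.82% and 5.85%.

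Called genes of a function were counted next, and the genes named for each function were chosen after their values were seen, apart from trib3, mapk14 and genes named above. Of the functions counted, the one with the most called genes was the C2H2 zinc finger group, matched by gene name, with 21 of 333 called up (6.31%) and 3 down, znf598 among the latter, and 54 up and 13 down without the third wild-type library. The median was 0.14 (0.17 without the third wild-type library), and in 100 of the 333 (30.0%) every MZznf598 library lay higher. Over all genes, 14.4% lay higher in every MZznf598 library, and 1.15% were called up and 1.21% down. Without the third wild-type library, 6.06% of all genes were called up and 5.86% down. C2H2 zinc finger proteins bind DNA or RNA and many act as repressors. The called C2H2 genes spanned a wide range of levels. The gene znf1035 was at 806, 789 and 788 CPM in wild type and 1044, 1029 and 1114 CPM in MZznf598 (log2 fold change 0.42, edgeR adjusted p = 0.00886), and znf236 at 30.4, 29.7 and 37.3 CPM against 76.8, 88.7 and 81.6 CPM (1.35, 0.000525). Many of these genes have near-identical copies, so the reads of single members are uncertain. Of 108 RING and TRIM ligase genes, matched by name, 2 were called up (1.85%), rnf213 and trim35-27, and none down. This name match leaves out genes counted elsewhere. The ubiquitin ligase gene znf598, called down, stands with the zinc fingers, and ftr51 and ftr91, also called down, with the immune genes. Without the third wild-type library 5 of the 108 were up and 3 down. Of 1492 genes with clone-based names, 47 were called up (3.15%) and 33 down (2.21%), and 147 up and 110 down without that library.

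Calls among genes of translation and its quality control are given beside the shares over all genes. Those shares were 1.15% up and 1.21% down with all 6 libraries, and 6.06% and 5.86% without the third wild-type library. None of the 93 cytosolic ribosomal protein genes, the 78 translation factor genes, the 82 chaperone genes or the 39 mRNA decay genes was called with all 6 libraries. Without the third wild-type library none was called in the ribosomal protein list, 6 up and 4 down in the translation factors, 2 up and 1 down in the chaperones and 3 up and 2 down in mRNA decay. Among 36 genes of ribosome collision and rescue, znf598 was called down and the gene matched as mapk14, for a p38 stress kinase, was called up (2 up and 1 down without the third wild-type library). The level of mapk14 was 65.2, 65.8 and 79.8 CPM in wild type and 136, 132 and 123 CPM in MZznf598 (log2 fold change 0.89, SE 0.10, edgeR adjusted p = 0.00207). The mapk14 groups were separate, and the call was lost when any one of the MZznf598 libraries or the second wild-type library was left out (edgeR adjusted p from 0.0157 to 0.0209). Of 40 genes of the integrated stress and unfolded protein responses, trib3, a pseudokinase gene induced by Atf4, was called up with all 6 libraries, and 1 gene was called up and 3 down without the third wild-type one. The level of trib3 was 148, 160 and 148 CPM against 207, 208 and 221 CPM (0.48, SE 0.08, edgeR adjusted p = 0.00836), and its call was lost without any single library other than the third wild-type one. None of 25 p53 pathway genes was called with all 6 libraries, and 3 were called up without the third.

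In the lists of the mitochondrial ribosome and respiratory chain and of the proteasome and ubiquitin, more genes lay lower in every MZznf598 library than higher. Over all genes the shares were 14.3% lower and 14.4% higher. Calls over all genes were 1.15% up and 1.21% down, or 6.06% and 5.86% without the third wild-type library. Of 166 genes of the mitochondrial ribosome and respiratory chain, mrps34 was called down and atp5f1c up, while in 41 (24.7%) every MZznf598 library was lower and in 6 higher, with a median of -0.13 (-0.14 without the third wild-type library, where 2 were called up and 9 down). The small ribosomal subunit gene mrps34 was at 44.2, 48.7 and 40.1 CPM in wild type and 18.2, 15.5 and 17.9 CPM in MZznf598 (log2 fold change -1.37, edgeR adjusted p = 0.000666). The ATP synthase gene atp5f1c was at 55.8, 49.6 and 62.7 CPM against 95.3, 94.1 and 95.9 CPM (0.76, 0.00421). Of 139 proteasome and ubiquitin genes, psmb10 and psmd12 were called down, and in 31 (22.3%) every MZznf598 library was lower and in 13 higher, with 3 called up and 9 down without the third wild-type library. The regulatory particle gene psmd12 was at 197, 181 and 203 CPM against 106, 115 and 102 CPM (-0.84, edgeR adjusted p = 0.000999). Of 30 histone genes hist1h2a11 was called up and histh1l1, h1-10 and hist2h3ca1 down, with 1 up and 9 down without the third wild-type library, and the list's median was -0.09.

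In the cilia list, 5 of 103 genes were called down (4.85%), against 1.21% over all genes: invs, ttc21b, ift74, cfap20dc and cfap100. The ciliary gene invs was at 52.9, 42.7 and 41.7 CPM in wild type and 8.56, 7.40 and 11.7 CPM in MZznf598 (log2 fold change -2.31, edgeR adjusted p = 0.000376). In 24 of the 103 (23.3%) every MZznf598 library was lower and in 9 (8.74%) higher, against 14.3% and 14.4% over all genes. Without the third wild-type library 9 of the 103 were called down and 3 up, against 5.86% and 6.06% over all genes. The whole list was matched by name. Its genes called up with all 6 libraries, ttc14 and ttc3, are not known for a role in cilia.

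Genes of adhesion and the matrix were called in both directions, with itga10 and cdh29 up and lama4, itga11 and col4a1 down of 125, and 13 up and 15 down without the third wild-type library. None of 33 genes of cell movement and epiboly was called with all 6 libraries, and 4 up and 3 down without the third. The calls were 3 up (1.10%) and 2 down (0.735%) of 272 solute carriers, and 1 up (0.417%) and 3 down (1.25%) of 240 regulators of small GTPases. Of 119 immune and antiviral genes 1 was called up (0.840%) and 4 down (3.36%). Those called down were ftr51, ftr91, mhc1zba and psmb10. The gene psmb10 is also counted with the proteasome, and it lies in a run of called neighbors with ftr51. With the third wild-type library left out, the calls in the solute carrier, small GTPase and immune lists were 11 up and 16 down, 10 up and 10 down, and 5 up and 10 down. Over all genes the shares were 1.15% up and 1.21% down, and 6.06% and 5.86% without that library. There was 1 call down in 97 motor genes, 1 down in 63 glycosyltransferases, and 1 up in 64 genes of cytochromes P450 and of glutathione and sulfo transfer. Without that library the counts were 10 up and 6 down for motors, 0 up and 5 down for glycosyltransferases, and 2 up and 4 down for the last list.

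Called genes often lay near each other. By gene order in the RefSeq table of the assembly GRCz12tu, which differs from the authors' build and was used for order alone, 11342 of the 14613 tested genes (77.6%) and 227 of the 345 called genes could be placed, so the unplaced ones are not described here. Of the placed called genes, 87 (38.3%) had another called gene among the 5 tested genes on either side, against 1705 of 11115 other placed genes (15.3%). In 60 of the 87 a called neighbor had changed in the same direction. No baseline for this count was worked out: calls were 168 up and 177 down, and many runs held both directions. Without the third wild-type library, with more genes called, the shares with a called neighbor were 78.6% of called and 59.7% of other genes. The longest run held 7 genes: si:ch73-389k6.1, zgc:113119, ftr51, ms4a17a.9, zgc:173770, psmb10 and ikbip, of which 2 were up and 5 down. Another held si:ch211-213a13.1, si:dkey-253d23.3, si:dkey-253d23.4 and si:dkey-253d23.8, which all rose. The gene trib3 stood in a run of 5 with maf1a, pnp4a, rnpep and timm17a. Among placed genes, none of the 40 nearest to znf598 (20 on each side) was called in either fit. Over all genes 2.36% were called, and 11.9% without the third wild-type library. The part of local sequence differences between the fish lines in these runs was not tested.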

How the data were processed

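The deposited values were whole-number read counts per Ensembl gene, 1 table per library. Per the labels and the study's methods, the authors depleted ribosomal RNA before making stranded libraries, trimmed single-end reads with fastp, aligned them to GRCz11 with STAR 2.7.8a and counted unique alignments with at most 1 mismatch with featureCounts. The annotation release and strand setting were not given in the sources used here. Reads of near-identical genes, or of alleles that differ from the reference, are lost under this rule, and overlapping antisense genes may share reads. No molecular identifiers were used.

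The 6 libraries at 6 hpf were fitted with edgeR 4.0.16 under R 4.3.3. A gene had to exceed 1 CPM in 3 or more libraries, which 14613 of 25432 did. CPM values use TMM scaling. A robust quasi-likelihood fit with 2 group means and 4 residual degrees of freedom gave 2-sided p-values with Benjamini-Hochberg adjustment, called below 0.01. The SE is approximate, from the log2 fold change and the F statistic. A gene with 0 counts in a genotype was given a floor of 3 counts, 0.357 CPM for wild type and 0.376 CPM for the mutant, which covers counting error only. The procedure was also run on simulated counts with a common mean per gene, changed only in chosen genes. A divergent library such as the third wild-type one was not simulated. Symbols came from a names table (14198 of the tested genes).

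Members and gene lists were chosen with earlier results of these data known, so 23 lists of named genes and 17 name patterns are described by counts and medians, with no test. Named genes are znf598, the 12 called genes each way with the lowest adjusted p (with a symbol, at least 2-fold, no overlap), the called members of the 23 lists, and germ layer anchors. Other genes were named after their values were seen.

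Replicate numbers were not treated as pairs in the main fit. All replicates of a group differed beyond sampling noise. Alternatives were another scaling, filter, test, threshold, all 12 libraries, a replicate block, DESeq2 1.42.0, and leaving out each library. Some genes of the lists are counted but not reported singly here.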

Additional observations from a re-analysis of the deposited data

How the results depend on the processing

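Scaling changed little: RLE factors gave 171 genes up and 176 down, and upper quartile factors 160 and 189, against 168 and 177. Testing every gene with a count gave 268 and 281, DESeq2 364 and 370 (168 and 174 shared with the edgeR calls), the likelihood ratio test 502 and 546, an adjusted p below 0.05 gave 502 and 521, a test against a 1.5-fold change 42 and 55, and the fit of all 12 libraries 277 and 285. When single libraries were left out, calls up ran from 29 (MZznf598 replicate 3) to 885 (wild-type replicate 3), and calls down from 38 to 857 at the same libraries. Without wild-type replicate 1 the counts were 150 and 152, without replicate 2 they were 51 and 69, and without MZznf598 replicates 1 and 2 they were 37 and 43, and 36 and 45.

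Same-numbered libraries of the genotypes were not paired, with correlations of their deviations from the group means of 0.11, -0.13 and -0.10. With the replicate number as a block, 62 genes were called up and 77 down, of which 61 and 75 were also called without the block.

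No called gene named by the rule reversed direction; the calls of bmp7a, bmp4, msx1b, lpar2, rxra, mapk14 and trib3 were lost under some of the alternatives, all 7 in the test against a 1.5-fold change, while the other called genes named by the rule kept theirs. The median of the Bmp list ran from -0.32 to -0.24 over the alternatives, and that of the organizer list from 0.22 to 0.30. The medians of the Wnt, ventrolateral and paraxial mesoderm, and cell movement lists (0.02, 0.01 and 0.02) changed sign with upper quartile scaling, and were 0.13, 0.16 and -0.02 without the third wild-type library. Genes near 1 CPM rest on few reads at this depth.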
